A study of Sus scrofa with 4 samples.

Results

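The 10 genes described here encode enzymes and helpers that modify, fold and trim collagen: the lysyl hydroxylases PLOD1, PLOD2 and PLOD3, the prolyl hydroxylases P4HA1, P4HA2, P4HA3 and P3H1, the chaperone SERPINH1, the protease BMP1 and its enhancer PCOLCE. They were taken by symbol from the deposited count tables, where each symbol belongs to 1 of 35670 genes listed, and all 10 were among the 14617 genes with enough reads to be tested. Collagen chains are made in the endoplasmic reticulum, where prolines and lysines are hydroxylated before the chains fold into a triple helix. 4-Hydroxyproline stabilizes the helix, hydroxylysine carries sugars and takes part in crosslinks, and chaperones hold the helix until it leaves the cell. Outside, proteases remove the end propeptides so that fibrils can form. Fibroblasts are the cells best known for this work, and the hydroxylases need iron, oxygen, 2-oxoglutarate and ascorbate.

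The libraries hold RNA of porcine fetal fibroblasts, cells of skin labelled as the line PFFs and starved of serum in both groups. The controls (2 libraries) have the genotype label WT, and the other group (2 libraries) is labelled BRG1-overexpressed, BRG1 being the ATPase of the BAF chromatin remodelling complex. All 4 titles include pTK-642, a name that the sources used here do not explain; whether control cells also received a vector is therefore unknown. The series was set up to learn how added BRG1 alters chromatin of the donor cells used for cloning. Separate cultures are not stated for libraries of the same group, so the p-values reflect the spread of these samples only, and that spread may be technical.

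Gene counts summed to between 34486400 and 38126860 per library. SMARCA4, the gene of BRG1, had 154 and 179 CPM (counts-per-million, the reads of a gene relative to all gene reads of its library, scaled by TMM) in the controls and 159 and 163 in the BRG1-labelled libraries, so it does not check the label, and directions below are those of the labelled libraries. Of 11 fibroblast markers 10 are listed and each averaged at least 1 CPM. Their summed level was 25590 to 28760 CPM in controls and 35970 to 36030 in BRG1-labelled libraries. Within that sum, COL1A1 and COL1A2 together averaged 8961 CPM in controls and 17970 in BRG1-labelled libraries. PDGFRA, LUM, DCN and FAP were also higher in both BRG1-labelled libraries, VIM, COL3A1 and S100A4 were lower in both, and PDGFRB overlapped. Epithelial, melanocyte and adipocyte markers summed to under 1 CPM in every library (KRT5, KRT8, ADIPOQ and FABP4 at 0), blood markers to 1.46 to 2.43 CPM in controls against 2.68 to 3.05 (PTPRC at 0), and endothelial markers to 4.39 to 4.91 against 7.01 to 7.77 (TEK at 0). Bone and cartilage markers summed to 49.0 to 56.5 CPM against 68.4 to 69.0 (IBSP at 0), and muscle markers, almost wholly the actin ACTA2, to 7.57 to 8.77 against 136 to 151 (MYOD1 at 0). Reads outside annotated genes made up 6.73% ± 0.87 of reads in controls and 10.4% ± 0.19 in BRG1-labelled libraries (SD, n = 2). The part of these differences in the results below was not tested.

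Most of the hydroxylases were lower in the BRG1-labelled libraries, while the propeptide-trimming enhancer PCOLCE and the minor prolyl hydroxylase subunit P4HA3 were higher. By edgeR's quasi-likelihood test with Benjamini-Hochberg adjustment over all genes tested, at an adjusted p of 0.05, 6 of 10 members fell (PLOD1, PLOD2, PLOD3, P4HA1, P4HA2, BMP1), 2 rose (P4HA3, PCOLCE) and 2 did not pass (P3H1, SERPINH1). Over all genes tested 44.6% passed, 21% as higher and 23.6% as lower. Among the 1117 genes with at least as many reads as the member with the fewest, P4HA3, 66.4% passed, 47.6% as lower and 18.8% as higher, so the members' 6 lower and 2 higher lie nearer to that background than to the one over all genes. Their median log2 fold change was -0.41, against 0.02 over all genes tested and -0.25 over those 1117. Scaling by library size alone moved the median of all genes from 0.02 to 0.24 and their split from 3068 higher and 3444 lower to 4820 and 2139, and 2 members were then higher and 4 lower. The 2 groups did not overlap in 9 of 10 members, against 73.2% of genes in the whole table.

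The calls of 4 members, PLOD1, PLOD3, P4HA2 and PCOLCE, held in all 14 alternative analyses. Without BRG1-labelled library 1, and equally without library 2, only these 4 of 10 passed, 3 lower and 1 higher. In these fits the spread came from the controls alone, which lay further apart than the BRG1-labelled pair in 7 of 10 members. Without control 1 or control 2 the spread came from the BRG1-labelled pair alone. The small adjusted p of those fits, which set the low ends of the ranges below, rests on that spread. A pass there is therefore not evidence of a change. Replicates differed by at most 0.31 on the log2 scale between controls and by at most 0.10 between BRG1-labelled libraries.

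**Figure D1:**
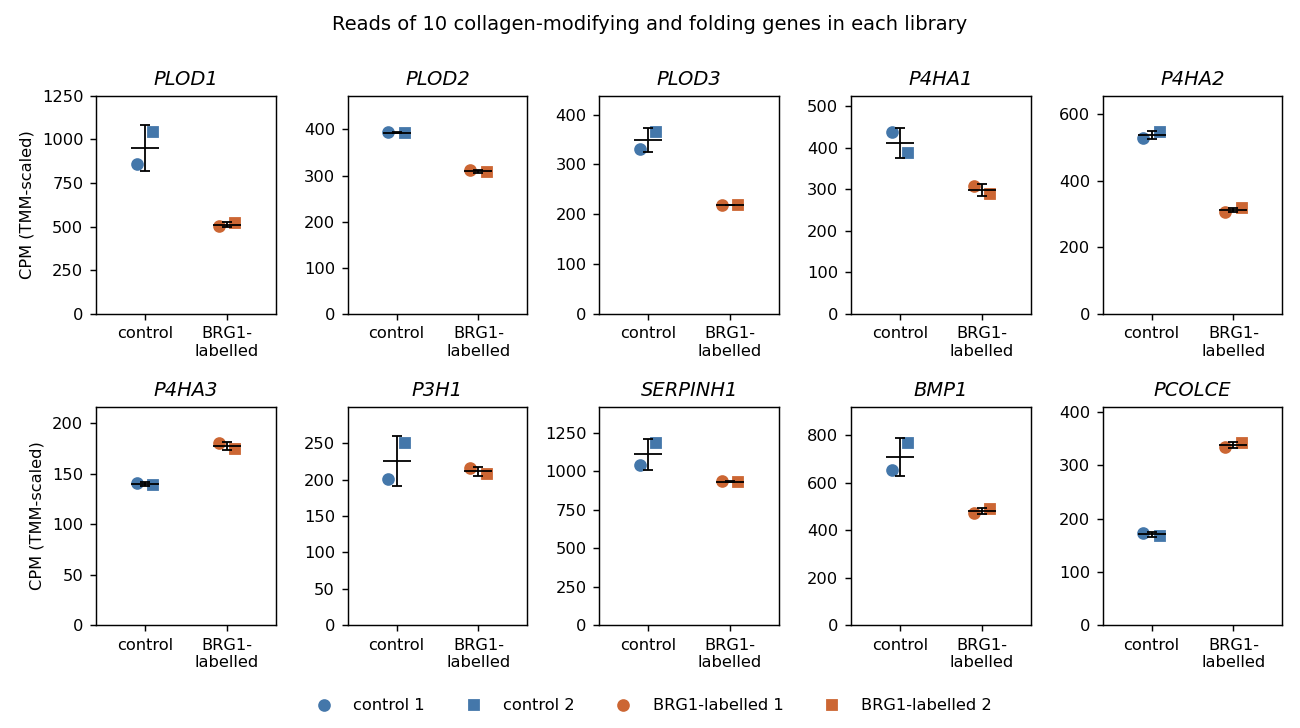
Level of each gene in the 4 libraries, in CPM scaled by TMM on axes that start at 0; points are libraries and black bars the mean ± SD of 2. Control and BRG1-labelled points are apart in 9 panels and overlap in that of P3H1, where the controls lie at 201 and 250.0 CPM.

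The lysyl hydroxylases all fell, to different extents. PLOD1 (ENSSSCG00000003433; Sscrofa11.1 chromosome 6, 71987938 to 72019712), which hydroxylates lysines within the triple helix, had 856 and 1042 CPM in controls and 500.1 and 519.7 in the BRG1-labelled libraries. Both labelled libraries lay far below both controls, and the gap between groups was wider than that between the controls. Its log2 fold change (± SE) was -0.90 ± 0.12 with an adjusted p = 2.335e-05, a level 0.54-fold that of controls with a 95% interval of 0.45 to 0.64. This was the largest fall of the 10 members.

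PLOD2 (ENSSSCG00000011689; chromosome 13, 86402673 to 86513167), which hydroxylates lysines in the telopeptides and so sets the type of crosslink, had 395 and 392 CPM in controls and 311 and 307 in BRG1-labelled libraries. The libraries of each group were nearly alike and the groups did not overlap. Its log2 fold change of -0.35 ± 0.10 (adjusted p = 0.0113) was the smallest of the 6 that passed as lower. It no longer passed with scaling by library size alone (-0.12; adjusted p = 0.337), without BRG1-labelled library 1 (-0.36; adjusted p = 0.252) or without library 2 (-0.34; adjusted p = 0.280), and it lay outside a threshold of 0.01. Over its 14 alternatives the adjusted p ran from 2.369e-14 to 0.337.

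PLOD3 (ENSSSCG00000028879; chromosome 3, 8911787 to 8919525), which also transfers the sugars of hydroxylysine, had 331 and 365 CPM in controls and 219 in each BRG1-labelled library. Both labelled libraries lay below both controls. The change on the log2 scale was -0.67 ± 0.10 (adjusted p = 0.0001004). Summed over the 3 genes, PLOD reads came to 1690 ± 154 CPM in controls and 1038 ± 10.4 in BRG1-labelled libraries (SD, n = 2).

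Because the genes differed in the size of their fall, the family's reads were divided differently. PLOD2 took 25.0% and 21.8% of PLOD reads in controls and 30.2% and 29.4% in BRG1-labelled libraries. PLOD1 took 54.1% and 57.9% in controls and 48.5% and 49.7% in BRG1-labelled libraries. Neither of these shares overlapped between groups, whereas that of PLOD3, 20.3% to 20.9% against 20.9% to 21.3%, did. Such shares do not depend on how libraries are scaled. An exact permutation test of 2 against 2 cannot give a p below 0.333, so the shares are given without a test. Groups that do not overlap are common here, at 73.2% of all genes tested when measured in CPM.

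The catalytic alpha subunits of prolyl 4-hydroxylase, which makes the 4-hydroxyproline of the helix, moved in opposite directions. P4HA2 (ENSSSCG00000020915; chromosome 2, 134502210 to 134595444) had 530.5 and 547 CPM in controls and 307 and 318 in BRG1-labelled libraries. The groups stood well apart, with little spread in either. Its log2 fold change was -0.79 ± 0.10 (adjusted p = 2.184e-05), or 0.58-fold with a 95% interval of 0.50 to 0.68.

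P4HA1 (ENSSSCG00000010292; chromosome 14, 75827207 to 75919121) had 438 and 387 CPM in controls and 308 and 289 in BRG1-labelled libraries. All labelled values lay below the lower control. The log2 fold change was -0.47 ± 0.11 (adjusted p = 0.002519). It did not pass with scaling by library size alone (-0.24; adjusted p = 0.0753), without BRG1-labelled library 1 (-0.51; adjusted p = 0.0805) or without library 2 (-0.42; adjusted p = 0.163), and its adjusted p over 14 alternatives ran from 7.287e-34 to 0.163.

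P4HA3 (ENSSSCG00000014840; chromosome 9, 8627365 to 8681804), the third alpha subunit, had 141 and 139 CPM in controls and 180.3 and 175 in BRG1-labelled libraries. It was the only hydroxylase of the 7 whose call was higher, and its libraries did not overlap. Its log2 fold change was 0.35 ± 0.10 (adjusted p = 0.009923), or 1.27-fold with a 95% interval of 1.10 to 1.47. Without BRG1-labelled library 1 or library 2 the value was 0.33 or 0.36 and did not pass (adjusted p = 0.234 and 0.173, in a range over 14 alternatives from 6.562e-08 to 0.234).

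Of all reads of the 3 alpha subunits, P4HA3 took 12.7% and 12.9% in controls and 22.7% and 22.4% in BRG1-labelled libraries, a shift of 9.71 percentage points. The share of P4HA2 was smaller by nearly the same, from 47.8% and 51.0% to 38.6% and 40.7%. The share of P4HA1 overlapped between groups, at 36.1% to 39.5% in controls and 36.9% to 38.7% in BRG1-labelled libraries. The alpha subunits together fell from 1091 ± 25.7 to 789 ± 10.7 CPM.

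**Figure D2:**
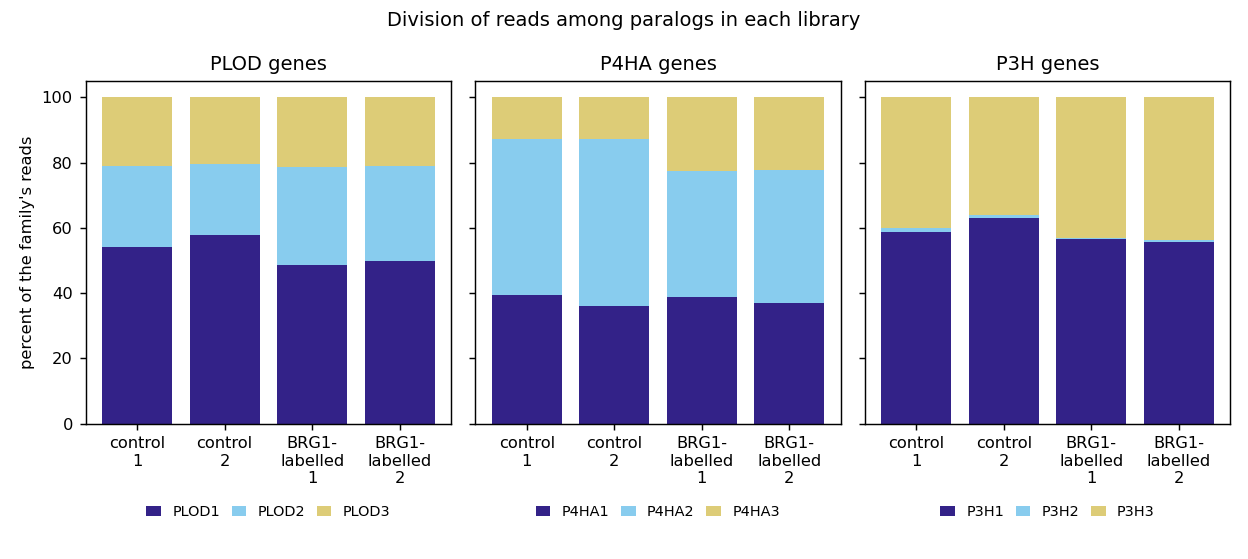
Percent of each paralog family's reads by gene, in bars that stack to the whole for each of 4 libraries. P4HA3 is wider in both BRG1-labelled libraries (22.7% and 22.4%, against 12.7% and 12.9%) and P4HA2 is narrower. PLOD2 is wider as a share, though its level fell, and PLOD1 is narrower.

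P4HB, the protein disulfide isomerase that serves as the beta subunit of prolyl 4-hydroxylase, fell from 2384 ± 79.2 to 1420 ± 30.6 CPM (log2 fold change -0.75 ± 0.11; adjusted p = 7.331e-05). Per 100 reads of the alpha subunits, P4HB had 220 and 217 reads in controls and 181 and 179 in BRG1-labelled libraries. That ratio did not overlap between groups and was not tested. A lack of overlap is common here, and in CPM it held for 73.2% of all genes tested.

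Prolyl 3-hydroxylase 1, encoded by P3H1 (ENSSSCG00000023920; chromosome 6, 168668275 to 168687832), works in a complex with CRTAP and the cyclophilin PPIB that modifies single prolines of the helix. P3H1 had 201 and 250.0 CPM in controls and 215 and 207 in BRG1-labelled libraries, so the labelled libraries lay between the controls. Its log2 fold change was -0.10 ± 0.11 (adjusted p = 0.532), with a 95% interval from -0.34 to 0.15. The direction followed the choice of control: the value was -0.25 without control 1 and 0.05 without control 2. It was 0.13 with scaling by library size alone, and the adjusted p over 14 alternatives ran up to 0.968.

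CRTAP, the helper of P3H1, rose from 149 ± 7.75 to 216 ± 3.94 CPM (log2 fold change 0.53 ± 0.10; adjusted p = 0.000546). PPIB had 127 and 91.0 CPM in controls and 83.7 and 90.7 in BRG1-labelled libraries and did not pass (-0.32 ± 0.13; adjusted p = 0.0636). It passed as lower with the replicate block (-0.30, adjusted p = 0.02304) and with no filter on low counts (-0.35, adjusted p = 0.007771). Its log2 fold change was -0.55 without control 2 and -0.07 without control 1. Over its 14 alternatives the adjusted p of PPIB ran up to 0.823. Of this complex only CRTAP passed the threshold. Per 100 reads of CRTAP, P3H1 had 130 and 174 reads in controls and 98.4 and 97.1 in BRG1-labelled libraries. Of all 7 partners of the prolyl hydroxylases tested, 2 rose (CRTAP and P4HTM, a membrane-bound relative), 1 fell (P4HB) and 4 did not pass. With 42.9% called, near the 44.6% over all genes tested, the count is not a result about the list. That total of 3 was 5 without control 1 and 5 without control 2.

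SERPINH1 (ENSSSCG00000039468; chromosome 9, 9782939 to 9794485) encodes HSP47, the chaperone that binds the folded procollagen helix. It had 1039 and 1182 CPM in controls and 934 and 930.5 in BRG1-labelled libraries. Both labelled libraries lay below both controls, but control 1 lay nearer to them than to control 2. The log2 fold change of -0.25 ± 0.11 did not pass (adjusted p = 0.07998). Its 95% interval, without adjustment for the number of genes, ran from 0.71-fold to 0.99-fold. It passed in DESeq2 (-0.26, adjusted p = 0.0364) and with no filter on low counts (-0.28, adjusted p = 0.0286). Its log2 fold change was -0.35 without control 1 and -0.17 without control 2. The value was -0.03 with scaling by library size alone and -0.05 once each library's gene-span trend was taken out. Over 14 alternatives the adjusted p of SERPINH1 ran up to 0.857.

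Among 14 other chaperones and folding factors, nearly all of the endoplasmic reticulum, 6 fell and 2 rose. That is 57.1% called, between the 44.6% over all genes tested and the 66.4% over genes with many reads, so the count is not a result about the list. HSPA5, the main HSP70 chaperone of the endoplasmic reticulum, fell from 2377 ± 89.9 to 1110 ± 9.97 CPM (log2 fold change -1.10 ± 0.11; adjusted p = 1.72e-06), and FKBP11, a prolyl isomerase, from 157 ± 11.0 to 88.2 ± 0.48 CPM (-0.83 ± 0.10). PDIA4, a disulfide isomerase, fell by 0.53 ± 0.10 on the log2 scale. FKBP9, another prolyl isomerase, rose from 203 ± 12.7 to 392 ± 1.05 CPM (0.95 ± 0.10), as did SPARC (0.87 ± 0.11), which is not a resident of that compartment but a secreted glycoprotein that binds collagen. FKBP10, a prolyl isomerase that acts with SERPINH1 and PLOD2, had 684 ± 36.7 and 663 ± 15.3 CPM and did not pass (-0.05 ± 0.11). The list's median of -0.33 lay between the -0.41 of the 10 members and the -0.25 of the 1117 genes with many reads. Its calls were fewer without BRG1-labelled library 1 or library 2.

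The protease that removes the C-terminal propeptide and its enhancer moved apart. BMP1 (ENSSSCG00000009620; chromosome 14, 6443773 to 6489066), the procollagen C-proteinase, had 653 and 767 CPM in controls and 473 and 490.3 in BRG1-labelled libraries. Both labelled libraries lay below both controls. Its log2 fold change was -0.56 ± 0.11 (adjusted p = 0.0009237). Without BRG1-labelled library 1 or library 2 it was -0.53 or -0.59 and did not pass (adjusted p = 0.0898 and 0.0549, in a range over 14 alternatives from 2.352e-65 to 0.0898).

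PCOLCE (ENSSSCG00000027466; chromosome 3, 8523455 to 8528749), the glycoprotein that binds the propeptide and speeds its removal by BMP1, had 173 and 167 CPM in controls and 335 and 342 in BRG1-labelled libraries. The values within each group were almost alike, and both labelled libraries lay far above both controls. The log2 fold change was 0.99 ± 0.10 (adjusted p = 1.713e-06), or 1.99-fold with a 95% interval of 1.71 to 2.31, and it was between 0.95 and 1.29 in all 14 alternatives. Per 100 reads of BMP1, PCOLCE had 26.5 and 21.8 reads in controls and 70.8 and 69.7 in BRG1-labelled libraries, a ratio 2.91-fold higher that does not depend on scaling.

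**Figure D3:**
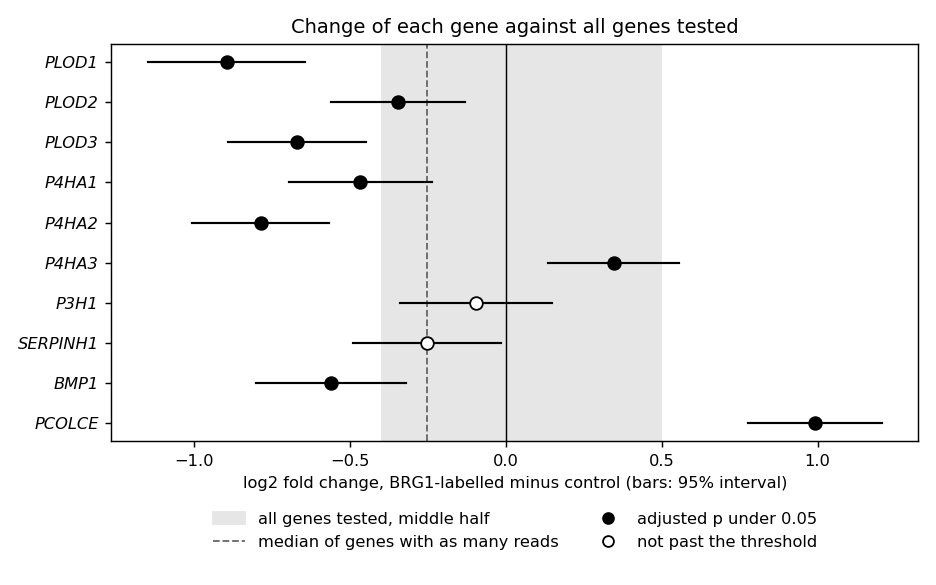
Log2 fold change of each gene (BRG1-labelled minus control) with its 95% interval; filled points passed an adjusted p of 0.05. The grey band spans the 25th to 75th percentile of all 14617 genes tested (-0.40 to 0.50) and the dashed line is the median of the 1117 genes with at least as many reads (-0.25); PCOLCE lies to the right of the band, and PLOD1, P4HA2, PLOD3, BMP1 and P4HA1 to its left.

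Other genes of propeptide removal were mostly higher. A list of 12 tested genes held proteases, enhancers, matrix proteins that bind them, and PSAP. In it 9 rose and 2 fell, with a median log2 fold change of 1.26. The share called was 91.7%, against 44.6% over all genes tested and 66.4% over genes with many reads. The list was chosen with earlier results of these data known, so that share is not a test of it. Some of its genes, such as TLL1 and TLL2, had fewer reads than any gene of the latter background. PCOLCE2, the paralog of PCOLCE, rose from 53.6 ± 3.86 to 120 ± 5.64 CPM (1.16 ± 0.11; adjusted p = 5.637e-07). The N-propeptide proteases ADAMTS2, ADAMTS3 and ADAMTS14 rose by 0.31 ± 0.11, 1.00 ± 0.12 and 1.64 ± 0.14 on the log2 scale. Of the close relatives of BMP1, TLL2 rose from 1.32 ± 0.64 to 4.60 ± 0.37 CPM and TLL1, at 2.41 ± 0.21 and 2.94 ± 0.23 CPM, did not pass. FURIN, a proprotein convertase that activates BMP1, fell from 470.0 ± 46.0 to 207 ± 5.62 CPM (-1.19 ± 0.11). The other gene of the list to fall was PSAP (-0.44 ± 0.11). The largest rises in the list were those of SFRP2 (3.24 ± 0.11) and fibronectin, FN1 (2.16 ± 0.17), genes with many other roles.

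The substrates of these enzymes were mostly higher. Of 20 collagen chains tested 14 rose and 3 fell, with a median log2 fold change of 0.93. The share called was 85%, against 44.6% over all genes tested and 66.4% over genes with many reads. As this list too was chosen with earlier results known, that share is not a test of it. Some of the chains, such as COL8A2 and COL11A1, had fewer reads than any gene of the latter background. COL1A1 and COL1A2, the chains of type I collagen, rose from 4946 ± 788 to 10199 ± 106 CPM (1.04 ± 0.13; adjusted p = 1.772e-05) and from 4015 ± 526 to 7771 ± 35.6 CPM (0.95 ± 0.13; adjusted p = 2.674e-05). COL11A1, a minor fibrillar chain, rose by 2.78 ± 0.13 on the log2 scale and COL5A1, a chain of type V collagen, by 1.34 ± 0.13. COL3A1, the chain of type III collagen, had 7081 ± 763 and 6113 ± 19.1 CPM and did not pass (-0.21 ± 0.12; adjusted p = 0.180). COL3A1 passed as lower once the gene-span trend was taken out (-0.24, adjusted p = 0.03222). Its log2 fold change was -0.33 without control 1 and -0.11 without control 2. It was 0.013 with scaling by library size alone (adjusted p = 0.940, the highest of its 14 alternatives). COL5A3, a minor chain of type V collagen, fell by 0.95 ± 0.15.

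Reads of each member were set against type I collagen within each library, a ratio free of scaling. Each of the 10 had a lower mean ratio in BRG1-labelled libraries, 9 of them without overlap. A lower ratio without overlap held for 79.1% of all genes tested, since the denominator itself rose 2.01-fold, so 9 of 10 is close to the background. The members differed widely in size. PLOD1 had 107 and 105 reads per 1000 reads of COL1A1 and COL1A2 in controls and 27.9 and 28.8 in BRG1-labelled libraries, a ratio of 0.27. SERPINH1 had 129 and 120 in controls and 52.1 and 51.6 in BRG1-labelled libraries. PCOLCE was the exception: it had 21.6 and 16.9 in controls and 18.7 and 19.0 in BRG1-labelled libraries, so both labelled values lay between the controls.

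**Figure D4:**
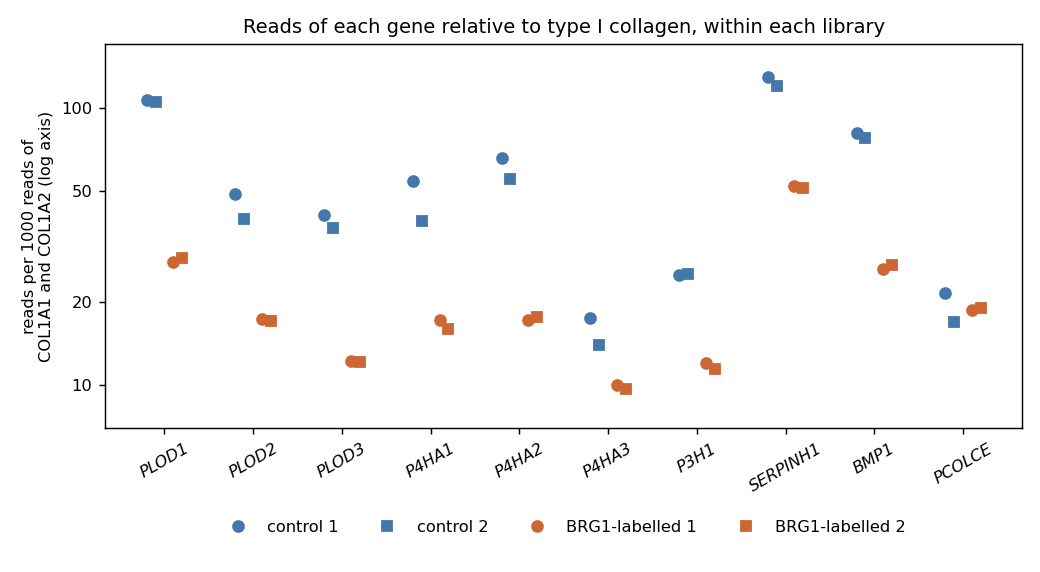
Reads of each gene per 1000 reads of COL1A1 and COL1A2 in each of 4 libraries, on a log axis. Orange points (BRG1-labelled) lie below blue points (control) for 9 genes and between them for PCOLCE, at 18.7 and 19.0 against 21.6 and 16.9.

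The collagen galactosyltransferases, which act on the hydroxylysine that the PLOD enzymes make, were split. COLGALT1, the broadly expressed form, rose from 77.9 ± 5.83 to 94.5 ± 2.97 CPM (0.28 ± 0.10; adjusted p = 0.0392), and COLGALT2 fell from 2.86 ± 1.06 to 0.51 ± 0.11 CPM (-2.48 ± 0.47). PGGHG, which removes the glucose of hydroxylysine, rose by 0.39 ± 0.11 on the log2 scale. Without BRG1-labelled library 1 or library 2, 1 of these 3 passed, as lower.

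Of 12 genes of procollagen export tested 2 rose, 1 fell and 9 did not pass. The share called was 25%, below the 44.6% over all genes tested. MIA3, the TANGO1 receptor that loads procollagen into COPII carriers, rose from 154 ± 18.6 to 212 ± 8.28 CPM (0.46 ± 0.11; adjusted p = 0.00314), as did CREB3L2, a transcription factor of secretory genes (0.48 ± 0.10). SEC13, a subunit of the COPII coat, fell from 318 ± 23.5 to 161 ± 5.68 CPM (-0.98 ± 0.10). These 3 calls became 5 with scaling by library size alone, 5 once the gene-span trend was taken out, 6 without control 1 or control 2, and 1 without BRG1-labelled library 1 or library 2.

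PLOD2 and P4HA1 are among the known targets of the hypoxia-inducible factors, and the other members were not sorted by this trait. In a list of 18 hypoxia-induced genes 15 fell and 1 rose, with a median log2 fold change of -1.13. The share called was 88.9%, against 44.6% over all genes tested and 66.4% over genes with many reads. Earlier results of these data were known when the list was chosen, so that share is not a test of it. Some of its genes, such as CA9 and ANKRD37, had fewer reads than any gene of the latter background. PFKFB3, a regulator of glycolysis, fell by 2.16 ± 0.11 on the log2 scale, HK2, a hexokinase, by 1.64 ± 0.11, VEGFA, an angiogenic growth factor, by 1.61 ± 0.11, and NDRG1 by 1.41 ± 0.10. The falls of PLOD2 (0.35) and P4HA1 (0.47) were smaller than the list's median. LOX, the collagen crosslinking enzyme, was the single member of that list to rise (1.83 ± 0.12).

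**Figure D5:**
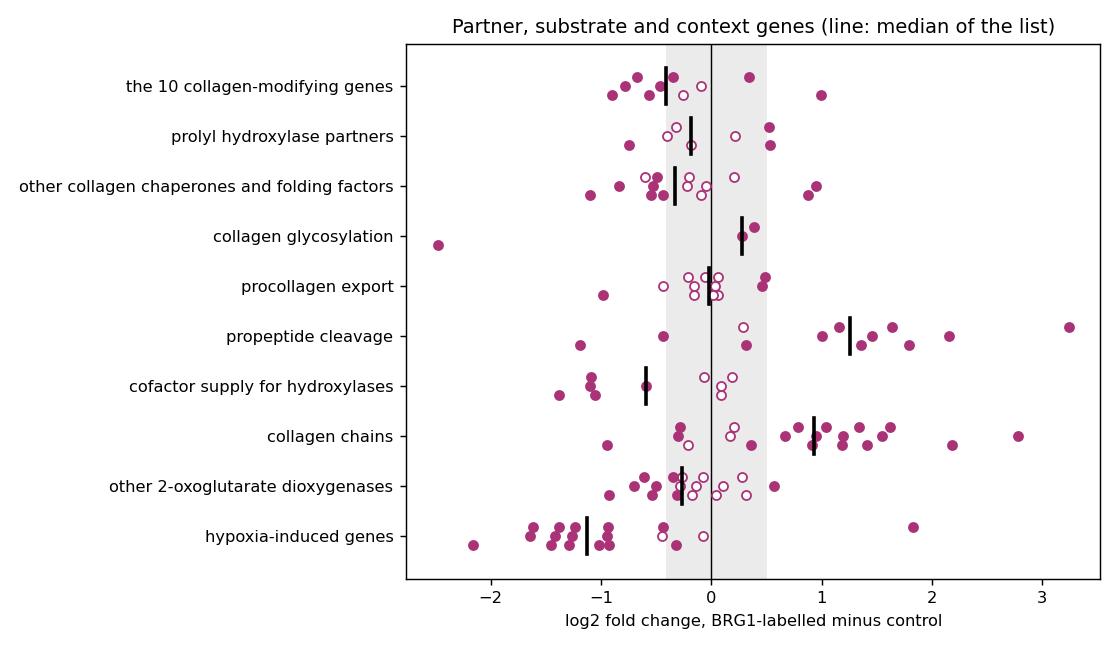
Log2 fold change (BRG1-labelled minus control) of the 10 genes and of 9 lists of related genes; each point is a gene, shifted vertically for legibility, filled where the adjusted p was under 0.05, the black line is the list's median and the grey band the 25th to 75th percentile of all genes tested. Collagen chains (median 0.93) and propeptide removal genes (1.26) lie to the right, the 10 members (-0.41) and hypoxia-induced genes (-1.13) to the left.

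The members lie on 6 chromosomes. PCOLCE and PLOD3 lie 383 kb apart on chromosome 3, the former higher and the latter lower. P4HA3, which rose, and SERPINH1, which did not pass, lie 1.1 Mb apart on chromosome 9. In the RefSeq annotation 6 of 10 members overlap another gene, and the strand setting of the counts is not given, so reads there cannot be fully told apart. Of the 5.295 kb that PCOLCE spans, 5.29 kb overlap FBXO24. FBXO24 had 34 and 50 reads in controls and 80 and 91 in BRG1-labelled libraries, against at least 5361 of PCOLCE in any library. P4HA2 overlaps PDLIM4 over 15 kb, and PDLIM4 had 2350 and 1800 reads in controls and 1814 and 1686 in BRG1-labelled libraries.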

How the data were processed

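Each library has 1 deposited table of raw read counts by Ensembl gene. The submitters' processing notes name STAR, FastQC, SAMtools, Cufflinks, edgeR and DESeq2 and the build Sscrofa11.1; the read counter, strand setting and annotation release are not given in the sources used here. Closing rows that name no gene were left out of library sizes and tests. Members were matched by symbol, and coordinates by symbol to a RefSeq gene table of Sscrofa11.1.

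Fits used R 4.3.3 and edgeR 4.0.16 on all 4 libraries: filterByExpr (minimum count 10, minimum total 15), TMM scaling (factors 0.918 and 0.931 in controls, 1.08 and 1.08 in BRG1-labelled libraries), and the quasi-likelihood F test with group as the only term, not robust. Benjamini-Hochberg adjustment ran over 14617 genes; each SE was taken from the unshrunk log2 fold change and its F value. CPM is not divided by gene length, so levels are not compared between genes. Counts this deep (at least 4451 reads for any member) leave little counting error.

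Alternatives were 10 other settings (scalings, DESeq2 1.42.0, limma 3.58.1 voom, robust estimation, filters, threshold, replicate number as a block, a correction of each library for gene span) and each of 4 libraries left out. The members and lists were chosen with earlier results of these data known. Named genes are the 10 members, SMARCA4, P4HB, CRTAP, PPIB, COL1A1, COL1A2, COL3A1 and up to 5 genes with the smallest adjusted p of each list; other genes named were chosen after their values were seen. Replicates differed by more than counting noise (chi-square per degree of freedom 37.2 between controls and 5.33 between BRG1-labelled libraries).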

Additional observations from a re-analysis of the deposited data

Results flagged for a closer look

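Reads outside annotated genes, which enter no comparison of genes, made up 10.4% of reads listed in the BRG1-labelled libraries (10.3% and 10.5%) against 6.73% in controls (6.11% and 7.34%). This signal lay above its level in the control samples. Its part in the values of the 10 genes was not tested.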

How the results depend on the processing

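PLOD1, PLOD3, P4HA2 and PCOLCE kept direction and call in all 14 alternatives. In the fits that left out a control, a pass is not evidence of a change. With scaling by library size alone, which moved the median of all genes to 0.24, genes past the threshold were 4820 higher and 2139 lower (main 3068 and 3444), the members' median was -0.18, export genes past the threshold numbered 5, P3H1 turned to 0.13, SMARCA4 to 0.18 and COL3A1 to 0.013, and other dioxygenases split into 4 higher and 4 lower. Once each library's gene-span trend was taken out (77.4% of genes tested have a span) the members' median was -0.48 and 5 export genes passed. At an adjusted p of 0.01, 5 other dioxygenases passed and PLOD2 did not. The cause was not tested in each case, apart from the stricter threshold itself.

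Leaving out each library in turn gave 4085 to 7994 genes past the threshold, 1908 to 3673 higher and 2177 to 4321 lower; among members 4 to 10 passed, 1 to 2 higher and 3 to 8 lower, with a median of -0.43 to -0.37. The counts were 2 to 5 for prolyl hydroxylase partners, 4 to 12 for chaperones, 1 to 3 for glycosylation, 1 to 6 for export and 4 to 12 for other dioxygenases. With each library left out, P3H1 ran from -0.25 to 0.054 and SMARCA4 from -0.15 to 0.048, both turning positive without control 2. The P4HA1 share of its family changed by 0.05 percentage points, and by -1.66 to 1.76 with a library left out; it was -1.66 without control 2 and -0.84 without BRG1-labelled library 1. A fit that leaves an arm with 1 library assumes that it varies like the other group.

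With the replicate block 8 members passed, 2 higher and 6 lower, with a median of -0.41, and 6694 genes in all; it changed no call of a member, and PPIB passed as lower (-0.30). The labels give the numbers no meaning, and same-numbered libraries did not deviate together (correlation -0.04 across genes). Reads per kilobase of coding sequence were not run for the family shares, since no coding lengths were given.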

Other observations

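Genes that handle the cofactors of the hydroxylases, and other enzymes of the same class, were also read. The first list held 9 genes tested that carry, recycle, make or use iron, ascorbate or 2-oxoglutarate. Of these 5 fell in edgeR's quasi-likelihood test and the other 4 did not pass. The share called, 55.6%, lay between the 44.6% over all genes tested and the 66.4% over genes with many reads. The count is therefore not a result about the list. The median log2 fold change was -0.59, and with scaling by library size alone 5 fell and 2 rose. SLC23A2, an ascorbate transporter, fell from 318 ± 45.1 to 149 ± 8.38 CPM (-1.10 ± 0.12; adjusted p = 2.515e-06), and SLC39A14, a zinc and iron transporter, from 243 ± 24.0 to 93.1 ± 1.94 CPM (-1.38 ± 0.11). SLC11A2, which carries iron, fell by 1.05 ± 0.10 on the log2 scale and OGDH, which consumes 2-oxoglutarate and so is no supplier, by 1.09 ± 0.10. TFRC, the transferrin receptor, had 299 ± 10.3 and 286 ± 1.56 CPM and did not pass (adjusted p = 0.623).

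Of 17 other 2-oxoglutarate dioxygenases tested, 7 fell and 1 rose (median -0.27), close to the 44.6% called over all genes. With scaling by library size alone 4 fell and 4 rose. EGLN3, an oxygen-sensing prolyl hydroxylase, fell from 56.6 ± 6.22 to 29.8 ± 1.14 CPM (-0.92 ± 0.12), and EGLN1 from 98.8 ± 3.50 to 64.9 ± 2.95 CPM (-0.61 ± 0.10). TMLHE, a carnitine synthesis enzyme, rose by 0.57 ± 0.14 on the log2 scale. Without BRG1-labelled library 1 this list held 4 calls, and without library 2 it held 5.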
